A study of Brassica juncea with 21 samples.

Results

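WRKY and NAC proteins are plant transcription factor families, and their transcripts were followed here through the floral nectaries of Brassica juncea, an oilseed and condiment mustard. The members were all genes whose product name holds the word WRKY or calls the product a NAC domain-containing protein or a NAC transcription factor, apart from 2 NAC genes left out by name (LOC103831344 and LOC103863903, whose matched Arabidopsis genes are the senescence regulators NAP and ORE1). The rule used product names and no measured value. It found 66 genes among the 13904 in the table, 33 WRKY and 33 NAC, and all 66 passed the filter on low values. Where a gene had several transcript rows, as 5 members did, the row with the highest mean was used.

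RNA was sequenced from lateral nectaries and from median nectaries, the pair of nectary types of the mustard flower, at 3 stages each, and from leaf. Dissection took place 24 h ahead of anthesis for the pre-secretory stage, in fully open flowers between 4 and 8 h from dawn for the secretory stage, and 12 h later than that for the post-secretory stage. Leaf was taken when secretory nectaries were. Plants carried no transgene or treatment according to the labels, were about 40 days old at nectary dissection, and grew at 21 °C under 16 h of light. The labels count 3 libraries in each of the 7 groups, and each nectary library pooled about 100 nectaries of separate sets of plants. The table gives 1 normalized whole-number score per group, so no replicate spread, test, p-value or interval exists for any comparison below, and the read depth per library is unknown.

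The WRKY domain takes its name from the amino acids at its start and binds the W-box, a short promoter element centred on TTGAC. WRKY factors are known above all for immune signalling, including responses to salicylic acid, and for leaf senescence. NAC factors share a DNA-binding domain at their amino end. The family includes regulators of drought and abscisic acid responses, of senescence, of xylem formation and of organ boundaries, and some members are held at membranes by a tail until they are released. Roles given below are those of the Arabidopsis genes.

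Of the 66 members, 45 were paired in the table with an Arabidopsis locus (22 WRKY and 23 NAC) and 4 of these with more than 1. Members are called here by the matched Arabidopsis gene, and by the product name where there is no match. For 14 of the 23 matched NAC genes the number in the product name differed from that of the matched gene, whereas for the WRKY genes it differed in 0 of 22. For the members that stand out most, the table gives the place of the Arabidopsis gene model without naming a build. WRKY28 lies on chromosome 4 from 10061508 to 10062691 and NAC019 on chromosome 1 from 19697292 to 19698444, on the forward and the reverse strand. NAC047 lies on chromosome 3 from 1061573 to 1062976 on the reverse strand, and NAC083 on chromosome 5 from 4196643 to 4197577 on the forward strand. Exons and untranslated regions were not resolved.

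The labelled tissues carried their marker genes. The nectary genes CRC, SWEET9 and CWINV4 summed to scores between 15361 and 333864 in the 6 nectary groups and to 178 in leaf. The 5 leaf mesophyll genes (copies of RCA, BCA1 and LHCB1.3) summed to between 19871 and 37226 in nectaries and to 894510 in leaf. Column totals were lowest in the lateral post-secretory group (7081592) and highest in the median secretory group (11197495). In these bulk samples fewer cells of a type and less RNA per cell cannot be told apart.

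Neither family had a member whose highest score was in a pre-secretory group, though 1 NAC gene did with columns scaled to the same total and 1 after quantile normalization. Post-secretory nectaries held the highest score of 19 WRKY and 18 NAC genes, secretory nectaries that of 13 and 13, and leaf that of 1 and 2. WRKY20, with 169 in both lateral secretory nectaries and leaf, was the 1 member with a tie and counts as secretory. Over all 13896 genes compared, 23.6% were highest in a post-secretory group, 32.4% in a secretory group, 23.1% in a pre-secretory group and 20.9% in leaf. Lateral secretory nectaries held 11 WRKY and 6 NAC genes at their highest, against 22.9% of all genes, and median secretory nectaries held 2 and 7, against 9.52%. Lateral post-secretory nectaries held 7 WRKY and 5 NAC genes at their highest, against 11.1%, and median post-secretory nectaries 12 and 13, against 12.5%. The median WRKY score was 38, 137 and 158 in lateral nectaries over the 3 stages in their order, 20, 67 and 176 in median nectaries, and 71 in leaf. The median NAC score followed the same order of stages, at 65, 166 and 197 in lateral nectaries and 43, 231 and 289 in median nectaries, with 122 in leaf. Over all genes the column medians stayed between 175 and 201. The counts by highest group rest partly on the lateral post-secretory column, whose header lacks the normalization mark of the other 6. Without that column, post-secretory nectaries held the highest score of 16 WRKY and 15 NAC genes, and pre-secretory nectaries again held none (0 and 0).

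**Figure D1:**
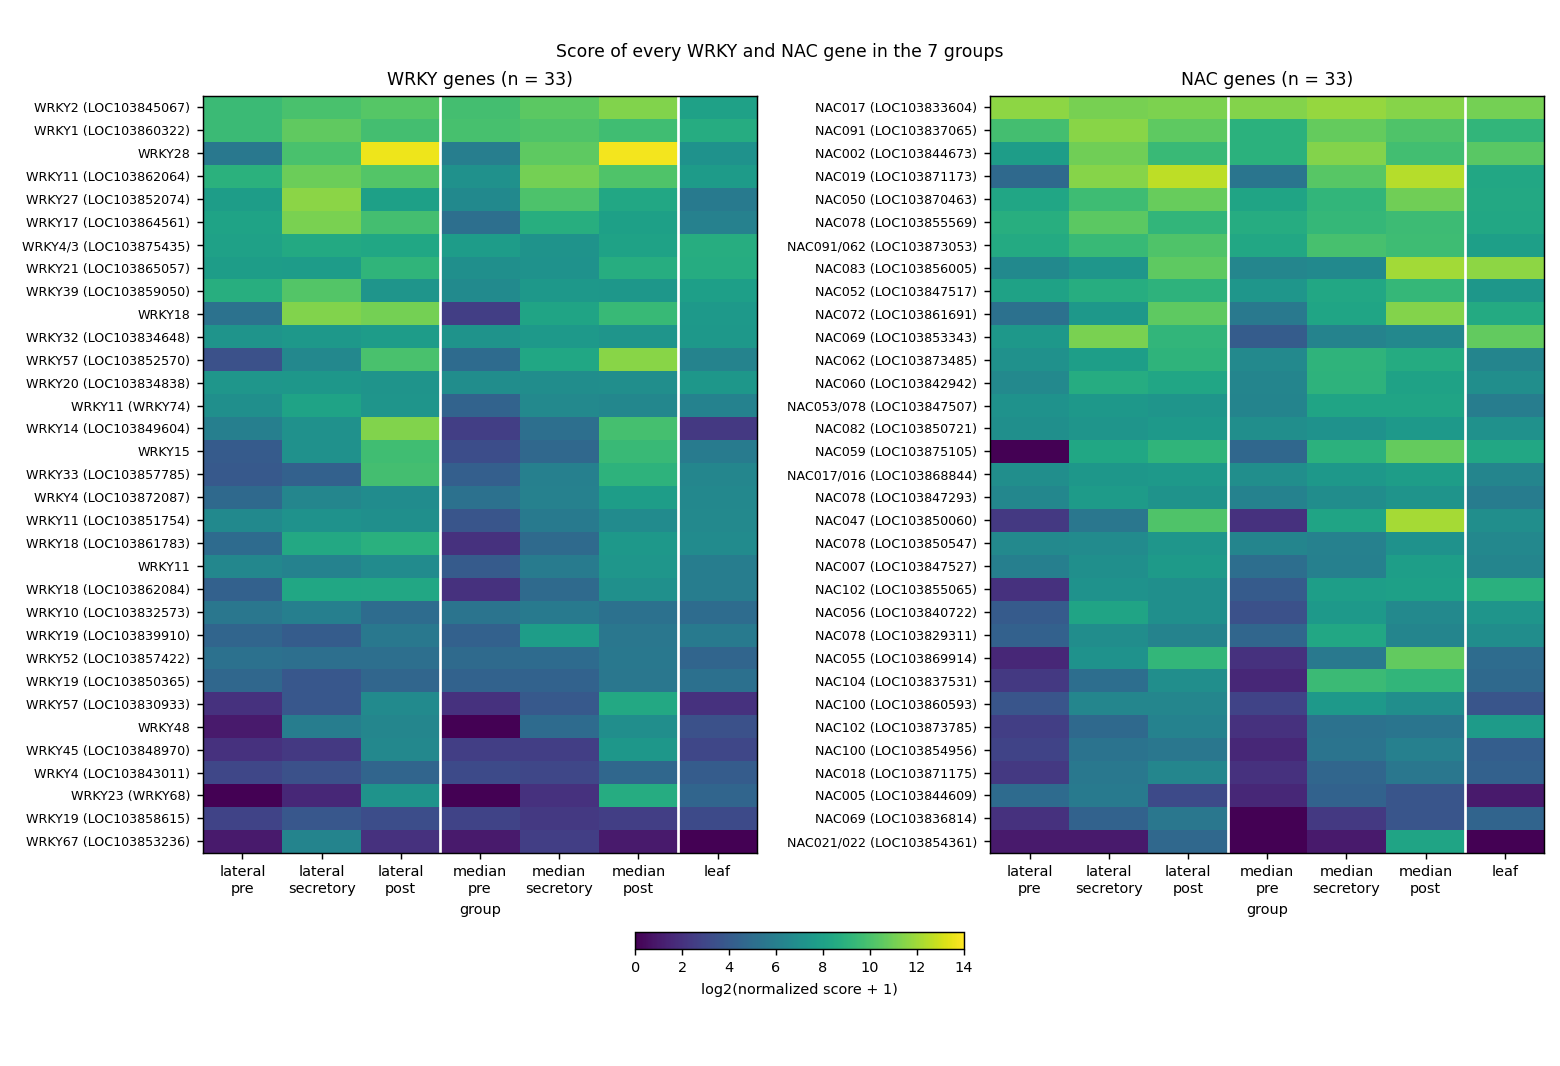
Score of each of the 33 WRKY genes (left) and 33 NAC genes (right) as log2 of the score plus 1, with 1 column per group and genes ordered by their mean on that scale. Names are those of the matched Arabidopsis gene, or of the product where there is no match. The pre-secretory columns are the darkest of the nectary columns for most genes, and WRKY28 in the post-secretory columns (12652 lateral, 13609 median) is the brightest entry.

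Members also varied more across groups than most genes. The highest score was at least 10 times the lowest, with 1 added to each, in 21 WRKY and 19 NAC genes, against 27.2% of all genes. The median of that ratio was 13.29 for WRKY genes, 21.75 for NAC genes and 4.19 for all genes. The steadiest members were WRKY32 (LOC103834648), from 146 to 215, WRKY20 (LOC103834838), from 114 to 169, NAC082 (LOC103850721), a factor of the response to ribosomal stress, from 119 to 184, and NAC017 (LOC103833604). NAC017 encodes a membrane-held factor that relays mitochondrial stress to the nucleus, and it had the highest mean of the NAC family. It scored 3147, 2261 and 2382 in lateral nectaries over the 3 stages, 2735, 3552 and 2815 in median nectaries and 2162 in leaf, a range of 1.64-fold.

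Fold values below are ratios of scores with 1 added to each. The comparison of secretory with pre-secretory nectaries asked how the families stood at the onset of nectar secretion. In lateral nectaries, 19 of 33 WRKY genes were at least 2-fold higher at the secretory stage, and 21 of 33 NAC genes were, against 21.3% of all genes. None of either family was at least 2-fold lower (0 and 0), against 23.9% of all genes. In median nectaries the numbers higher were 19 WRKY and 26 NAC genes, against 17.57% of all genes, and those lower were 0 and 0, against 18.7%. The median log2 differences were 1.04 for WRKY and 2.12 for NAC genes in lateral nectaries and 1.81 and 2.45 in median nectaries, where those of all genes were −0.05 and 0.02. In both nectary types at once, 15 WRKY and 19 NAC genes were at least 2-fold higher, against 13.4% of all genes, and 0 of either family were lower, against 14.8%. Members in opposite directions in the nectary types numbered 0, against 0.533% of all genes. The counts include 6 cases in which a member was listed at 0 before secretion, among them the NAC021/022-like gene in median nectaries with a score of 1 at secretion. The exceptions to a count of 0 lower were 1 WRKY gene in lateral nectaries with columns scaled to the same total and 1 NAC gene there after quantile normalization.

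**Figure D2:**
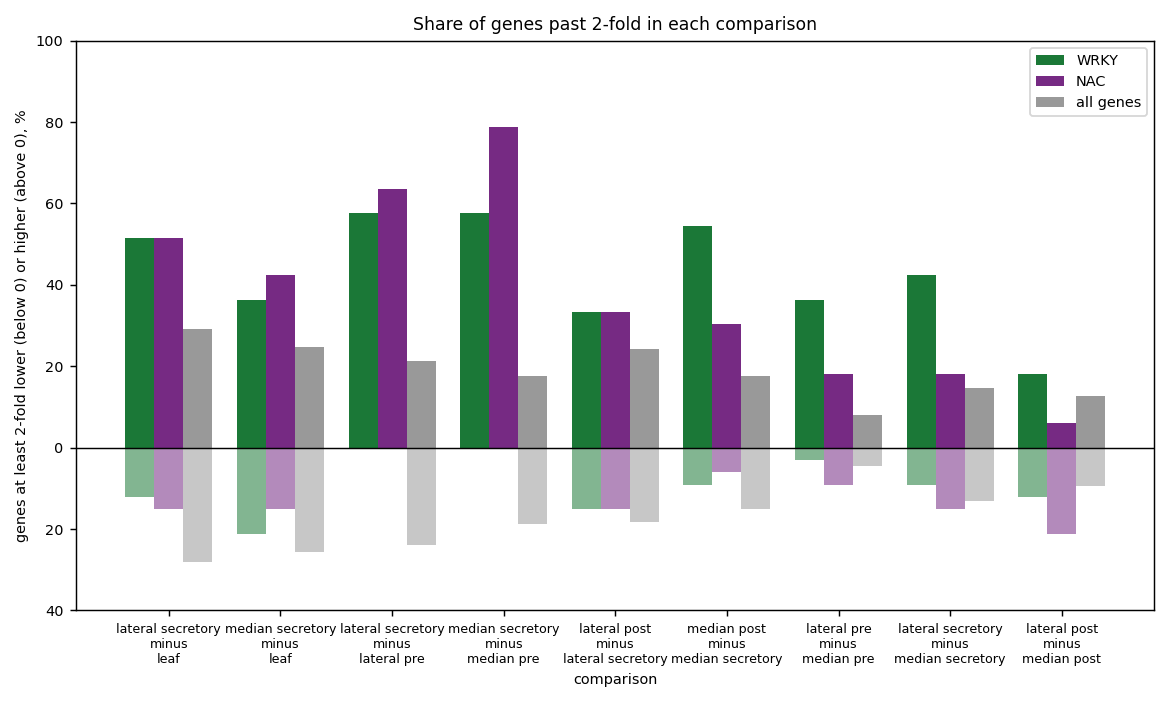
Share of the WRKY genes (green), NAC genes (purple) and all 13896 genes (grey) that were at least 2-fold higher (upward bars) or at least 2-fold lower (paler downward bars) in each of 9 comparisons, in percent. Both families lack downward bars in the secretory minus pre-secretory comparisons, where 23.9% and 18.7% of all genes were lower.

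A list of WRKY genes known from defence and salicylic acid signalling had 12 measured members, with several copies each of WRKY11 and WRKY18. With secretion 9 of the 12 were at least 2-fold higher in lateral nectaries and 12 in median nectaries. In median nectaries WRKY48 is counted from a listed 0. The group's median log2 differences were 3.09 and 2.86. The list does not hold every WRKY gene tied to disease or resistance. Outside it, WRKY27 was at least 2-fold higher at secretion in both types, LOC103875435 (WRKY3 or WRKY4) in neither, and no WRKY19 gene in both. WRKY18, which acts with WRKY40 and WRKY60 in basal defence, scored 38, 2607 and 2186 in lateral nectaries over the 3 stages, 5, 289 and 701 in median nectaries and 192 in leaf. The lateral secretory score was 66.9 times the lateral pre-secretory one on the scale with 1 added, and the median ratio was 48.3. The WRKY18 copies LOC103861783 and LOC103862084 scored 349 and 328 in lateral secretory nectaries against 29 and 19 before secretion, and 28 each in median secretory nectaries against 3 each. All 3 copies were thus low before secretion in both types and higher in lateral than in median nectaries at every stage.

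WRKY11 and WRKY17, related negative regulators of resistance to bacteria, were present as 4 and 1 members. WRKY17 (LOC103864561) scored 277, 2332 and 900 in lateral nectaries over the stages, 34, 442 and 245 in median nectaries and 71 in leaf. Of the WRKY11 genes, LOC103862064 scored 488, 1884 and 1234 in lateral nectaries, 132, 2173 and 1137 in median nectaries and 202 in leaf. Both peaked at the secretory stage in both nectary types. The other 3 WRKY11 genes reached at most 276, in lateral secretory nectaries (the gene with the symbol WRKY74). One of them, with the symbol WRKY11 in the table, was lower at the lateral secretory stage, 73 against 90 before secretion, and had 55 against 15 in median nectaries. Copies that share a matched Arabidopsis gene share sequence, and the sources used here do not say how reads were split among them.

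WRKY27 (LOC103852074), known from disease symptoms caused by the wilt bacterium Ralstonia, scored 222, 2994 and 246 in lateral nectaries, 98, 1102 and 332 in median nectaries and 52 in leaf. It was highest at the secretory stage in both types, by 13.4-fold over pre-secretory lateral and 11.1-fold over pre-secretory median nectaries. WRKY39 (LOC103859050), which takes part in heat responses, scored 432, 1241 and 158 in lateral nectaries, 176 and 167 in median nectaries at and after secretion, and 235 in leaf. Its secretory peak was at least 2-fold in lateral nectaries (2.87-fold) and 1.74-fold in median nectaries. WRKY67 (LOC103853236) reached 79 in lateral secretory nectaries and lay between 0 and 5 in the other 6 groups.

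The NAC stress and abscisic acid group holds relatives of ATAF1 and of NAC019. At the secretory stage 7 of its 7 genes were at least 2-fold higher in both nectary types. Of all genes, 21.3% were higher in lateral and 17.57% in median nectaries. The group's median log2 differences were 3.23 in lateral and 3.64 in median nectaries. NAC019 (LOC103871173), a factor of dehydration, abscisic acid and jasmonate responses, scored 27, 2762 and 6135 in lateral nectaries, 43, 1329 and 5487 in median nectaries and 341 in leaf. ATAF1 (LOC103844673), a stress-induced factor also tied to senescence, scored 219, 2033 and 719 in lateral nectaries, 487, 2669 and 852 in median nectaries and 1391 in leaf. NAC019 thus stood higher again after secretion, whereas ATAF1 peaked at secretion in both types. NAC102 (LOC103855065) scored 3, 141 and 125 in lateral nectaries, 15, 231 and 252 in median nectaries and 470 in leaf. A further NAC102-like gene without a match (LOC103873785) was highest in leaf as well, at 204, and had 27 in lateral and 38 in median secretory nectaries against 5 and 3 before secretion.

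Of 5 NAC genes linked to senescence, 3 were at least 2-fold higher at the secretory stage in each nectary type. The shares of all genes at this step were 21.3% in lateral and 17.57% in median nectaries. With members placed by the number in the product name alone, the list held 6 genes, of which 3 were higher in lateral and 5 in median nectaries. NAC059 (LOC103875105), known as ORS1, a promoter of leaf senescence, was listed at 0, 325 and 578 in lateral nectaries, scored 25, 508 and 1666 in median nectaries and had 338 in leaf. Against a group at 0 no fold is given. NAC100 (LOC103860593) scored 12, 84 and 85 in lateral nectaries, 6, 184 and 122 in median nectaries and 12 in leaf. NAC104 (LOC103837531), known as XND1, which restrains xylem vessel formation, was placed with 2 others in the group of wall and vascular genes, of which 1 was at least 2-fold higher in lateral and 2 in median nectaries. Placed by product name, that group held 2 genes without NAC104, of which 0 were higher in lateral and 2 in median nectaries. NAC104 scored 4, 32 and 120 in lateral nectaries, 2, 751 and 599 in median nectaries and 27 in leaf, so its step at the onset of secretion was 6.6-fold in lateral and 251-fold in median nectaries, from scores near 0. Folds from such low scores change with the value added before the logarithm.

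Among 16 NAC genes of membrane-held factors and of organelle or protein stress, 8 were at least 2-fold higher at the secretory stage in lateral nectaries and 10 in median nectaries, with medians of 1.06 and 1.29. By product name the list held 10 genes, of which 7 were higher in lateral and 6 in median nectaries. The 16 also include NAC050 (LOC103870463), which works with a histone demethylase, and NAC052 (LOC103847517). The first was counted as higher in both nectary types and the second in median nectaries. The largest step in lateral nectaries belonged to NAC069 (LOC103853343), a membrane-held factor, which scored 175, 2312 and 592 there, 16, 77 and 93 in median nectaries and 1608 in leaf. NAC091 (LOC103837065), whose product binds the capsid protein of turnip crinkle virus, scored 907, 2950 and 1486 in lateral nectaries, 493, 1630 and 1125 in median nectaries and 590 in leaf. NAC060 (LOC103842942) was 4.35-fold and 6.35-fold higher at secretion in lateral and median nectaries, NAC062 (LOC103873485), a factor of cold and endoplasmic reticulum stress, 1.7-fold and 5.71-fold. In the group for organ boundary, meristem and seed, 2 of 3 were higher in lateral and 3 of 3 in median nectaries, the last of these from a listed 0 to 1. There NAC056 (LOC103840722), which acts in seed coats, had 289 at the lateral secretory stage against 15 before, and 184 against 10 in median nectaries.

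The remaining members covered a wide range of levels. WRKY1 (LOC103860322), an early known member of the family, scored 734, 1515 and 905 in lateral nectaries, 984, 1112 and 836 in median nectaries and 409 in leaf, so that it was 2.06-fold higher at secretion in lateral nectaries and within 2-fold in median nectaries. WRKY48, which dampens basal resistance, scored 1, 60 and 86 in lateral nectaries, was listed at 0, 29 and 120 in median nectaries and had 10 in leaf. The NAC078 gene LOC103829311, named for a factor of the response to proteasome stress, scored 19, 114 and 75 in lateral nectaries, 24, 337 and 82 in median nectaries and 114 in leaf. It was 13.5-fold higher at secretion in median nectaries and 4.07-fold lower after it. NAC078 (LOC103855569) scored 444, 1397 and 602 in lateral nectaries, 409, 638 and 784 in median nectaries and 339 in leaf. At the low end, WRKY52 (LOC103857422) lay between 23 and 47, and the WRKY19 genes LOC103850365 and LOC103858615 lay between 13 and 45 and between 4 and 13. WRKY10 (LOC103832573), known from endosperm growth, lay between 30 and 66.

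Several other measures differed along with this step. All 4 pollen marker genes (copies of ACA9, AGP6 and VGD1) were at least 2-fold higher at the secretory stage in both nectary types. They summed to 3909 in lateral secretory against 600 in lateral pre-secretory nectaries, and to 6110 in median secretory against 1123 in median pre-secretory nectaries. Of 7 genes on a list for wounding and touch, 4 were higher and 1 was lower in lateral nectaries, with a summed score of 4430 against 1588. In median nectaries 4 were higher and 0 lower, at 2004 against 958. The listed genes that were higher in both types were ZAT12, CML38 and the pair of HSP17.6 genes, which are heat shock genes. The touch genes TCH2 and TCH4 were within 2-fold in both types. JAZ1 was the gene that was lower in lateral nectaries, and it was within 2-fold in median nectaries. SUC2, the 1 phloem marker measured, was higher at secretion, at 376 against 57 in lateral and 42 against 10 in median nectaries. KAT1 (LOC103827743), the 1 measured marker of epidermis and stomata, was lower, at 215 against 716 and at 113 against 461. The part of pollen, of handling and of tissue make-up in these steps was not tested.

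Genes that act with WRKY factors in salicylic acid and immune signalling were also read. Of 10 measured genes of a list of 27, 2 were at least 2-fold higher and 2 lower at the lateral secretory stage. These are near the shares of all genes, 21.3% and 23.9%. At the median secretory stage 3 were higher and 0 lower, against 17.57% and 18.7% of all genes. The kinase MPK6 (LOC103858096) scored 852, 1898 and 856 in lateral nectaries, 813, 1058 and 979 in median nectaries and 513 in leaf. MPK3 (LOC103873410), a kinase that acts upstream of WRKY33, scored 217, 225 and 1853 in lateral nectaries, 211, 729 and 1293 in median nectaries and 638 in leaf. ICS1 (LOC103830688), the salicylic acid synthesis gene that WRKY28 is known to activate, was lower at the secretory stage. It had 209 against 584 in lateral nectaries and, within 2-fold, 300 against 555 in median nectaries. EDS5 (LOC103869670), of the same list, differed the other way within 2-fold, with 430 against 316 in lateral and 800 against 456 in median nectaries.

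Of 3 senescence and phosphate WRKY genes, 2 were at least 2-fold higher at secretion in each type, against 21.3% and 17.57% of all genes. WRKY57 (LOC103852570), a factor of drought responses and of jasmonate-driven senescence, scored 10, 91 and 1010 in lateral nectaries, 29, 321 and 2902 in median nectaries and 77 in leaf. The other WRKY57 gene (LOC103830933) had 3 before and 13 at secretion in lateral nectaries, where it was 7.29-fold higher again afterwards, 3, 14 and 345 in median nectaries and 3 in leaf. Both copies were at least 2-fold higher at each step in both types. Of 4 developmental WRKY genes 1 was higher in each type, near the 21.3% and 17.57% of all genes. It was WRKY23, which was listed at 0 before secretion and reached 2 in lateral and 3 in median nectaries. WRKY2 (LOC103845067), which acts in pollen and in the zygote, scored 733, 994 and 1248 in lateral nectaries, 900, 1420 and 2604 in median nectaries and 261 in leaf.

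**Figure D3:**
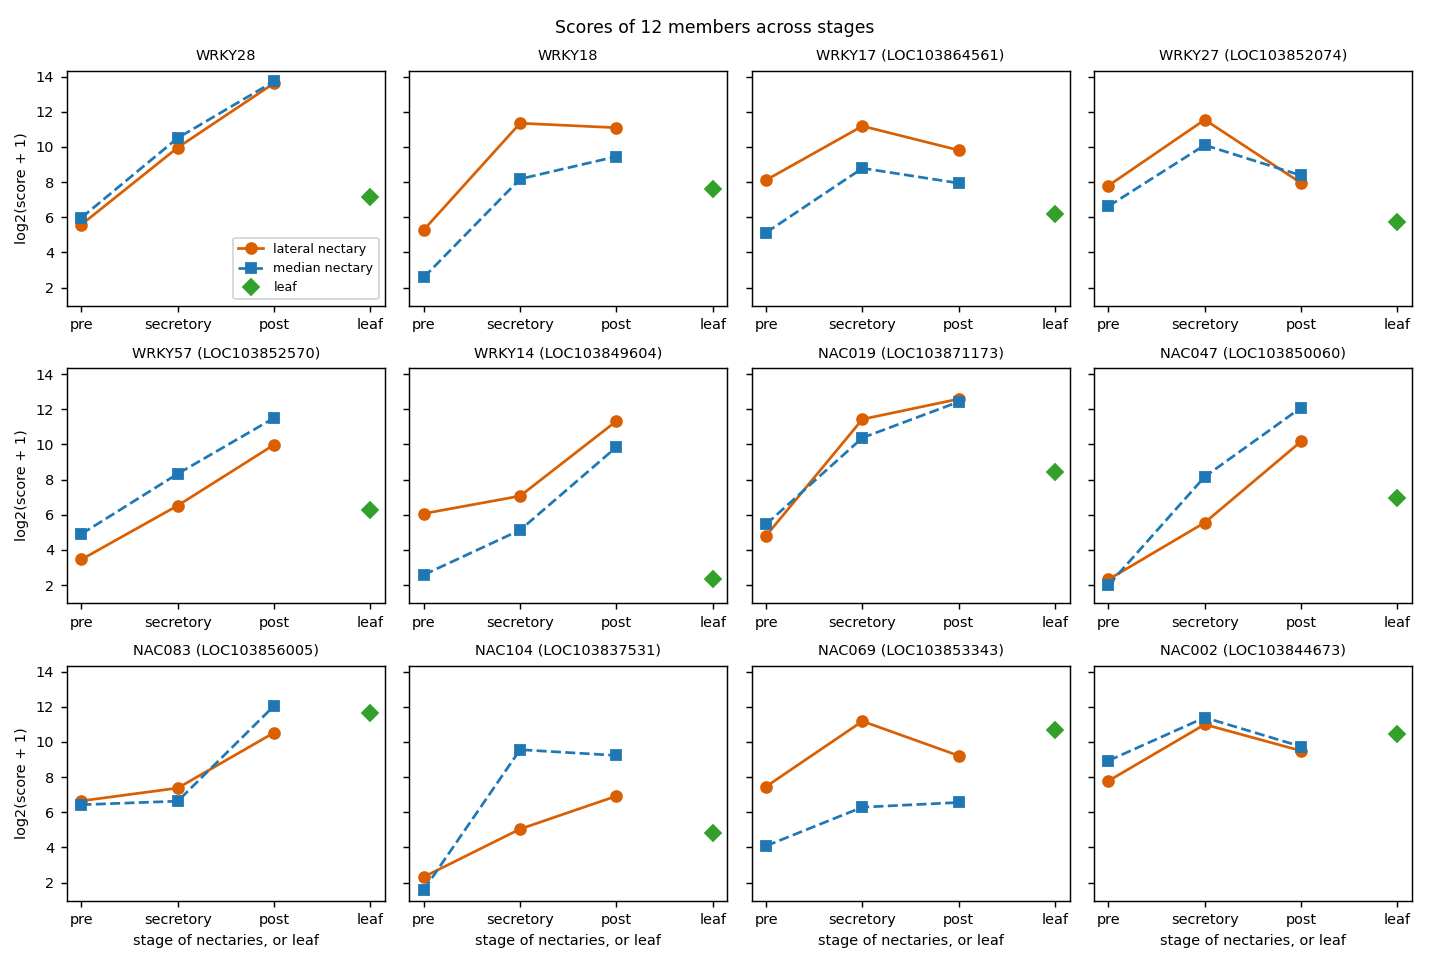
Scores of 12 members as log2 of the score plus 1, in lateral nectaries (orange circles) and median nectaries (blue squares) at the 3 stages, and in leaf (green diamonds). WRKY28, WRKY57, NAC019 and NAC047 are higher at each successive stage in both types, WRKY27 and NAC002 (ATAF1) peak at secretion, and NAC083 is about as low at secretion as before it.

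The end of secretion was addressed by comparing post-secretory with secretory nectaries. This step uses the same secretory scores as the one before, so opposite signs in the 2 steps are not independent. In lateral nectaries 11 WRKY genes were at least 2-fold higher and 5 lower after secretion, and the NAC counts were also 11 and 5. Of all genes, 24.2% were higher and 18.3% lower. With columns scaled to the same total the splits were 16 higher and 3 lower for WRKY and 17 and 2 for NAC genes, and that scaling moved the median of all genes in this step to 0.71 from 0.07. In median nectaries 18 WRKY genes were higher and 3 lower, and 10 NAC genes were higher and 2 lower, against 17.7% and 15% of all genes. After quantile normalization the median NAC split was 10 and 4. At the same step all 3 nectary markers were at least 2-fold lower in both types, with summed scores of 15361 after against 333864 at secretion in lateral nectaries and 26557 against 150171 in median nectaries. Of the 4 pollen markers, 0 were higher and 1 lower in lateral nectaries and 3 were higher and 0 lower in median nectaries, with sums of 2984 against 3909 and of 9677 against 6110. Of the 7 wounding and touch genes, 1 was higher and 4 were lower in lateral nectaries, and 1 and 3 in median nectaries. The part of nectary tissue, pollen and handling in the family counts was not tested. The stages were sampled 12 h apart, so time of day cannot be told apart from the end of secretion. In both types at once, 10 WRKY and 8 NAC genes were at least 2-fold higher, against 12.3% of all genes, and 2 and 1 were lower, against 8.66%.

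WRKY28, which promotes salicylic acid synthesis in Arabidopsis, reached the highest scores of both families. It scored 47, 1000 and 12652 in lateral nectaries, 62, 1459 and 13609 in median nectaries and 140 in leaf. The lateral and median values lay within 1.46-fold of each other at every stage. Post-secretory scores were 12.6-fold above secretory ones in lateral and 9.32-fold in median nectaries. ICS1, by comparison, scored 295 and 308 in lateral and median post-secretory nectaries against 209 and 300 at secretion.

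Other WRKY genes were also at least 2-fold higher after secretion than at it in both types. Of those given here, WRKY14, WRKY15 and WRKY23 were at least 2-fold higher at the onset of secretion as well. They were so in both types, WRKY23 from a listed 0. WRKY14 (LOC103849604) scored 66, 133 and 2568 in lateral nectaries, 5, 34 and 921 in median nectaries and 4 in leaf. WRKY33 (LOC103857785 by product name), a factor of resistance to necrotrophic fungi, scored 14, 19 and 903 in lateral nectaries, 18, 67 and 525 in median nectaries and 84 in leaf. WRKY23, listed under the symbol WRKY68 and known from auxin responses, was at 0 before secretion in both types, at 147 after and 2 at secretion in lateral nectaries, and at 402 after and 3 at secretion in median nectaries, with 23 in leaf. WRKY15, a factor of salt and oxidative stress responses, scored 15, 137 and 840 in lateral nectaries, 9, 26 and 710 in median nectaries and 55 in leaf. WRKY45 (LOC103848970), which acts in phosphate uptake and senescence, had 92 and 168 in lateral and median post-secretory nectaries and at most 7 in the other 5 groups. These 5 genes all had their highest score in a post-secretory group.

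WRKY genes that were at least 2-fold lower after secretion in both types were WRKY27, by 12.1-fold in lateral and 3.31-fold in median nectaries, and WRKY67, at 3 against 79 in lateral and at 1 against 5 in median nectaries. WRKY39 was 7.81-fold lower in lateral nectaries and within 2-fold in median nectaries. WRKY18 stayed high in lateral nectaries, at 2186 against 2607, and was 2.42-fold higher in median nectaries.

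Of the NAC stress and abscisic acid genes, 5 of 7 were at least 2-fold higher after secretion in lateral nectaries and 1 was lower, against 24.2% and 18.3% of all genes. In median nectaries the counts were 4 and 1, against 17.7% and 15%. Placed by product name, 4 of 7 were higher and 1 lower in lateral nectaries, and 3 and 1 in median nectaries. The median log2 difference in median nectaries was then 0.14 in place of 2.04. NAC047 (LOC103850060), which drives upward leaf movement under waterlogging, scored 4, 46 and 1150 in lateral nectaries, 3, 286 and 4365 in median nectaries and 122 in leaf. NAC072 (LOC103861691), a drought and abscisic acid factor also called RD26, scored 37, 176 and 1470 in lateral nectaries, 50, 296 and 2687 in median nectaries and 375 in leaf. NAC055 (LOC103869914), a close relative of NAC019, scored 2, 141 and 608 in lateral nectaries, 3, 49 and 1569 in median nectaries and 30 in leaf. The gene that was lower in both types was ATAF1, by 2.83-fold in lateral and 3.13-fold in median nectaries.

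NAC083 (LOC103856005), known as VNI2, which blocks xylem vessel formation and links salt stress to leaf ageing, showed a pattern of its own among the abundant NAC genes. It scored 99, 165 and 1471 in lateral nectaries, 85, 98 and 4239 in median nectaries and 3144 in leaf. It was therefore within 2-fold across the onset of secretion and then 8.87-fold and 42.8-fold higher after it. Of the 5 senescence-linked NAC genes, this gene was the 1 past 2-fold in lateral nectaries, and in median nectaries NAC059 (3.28-fold) joined it. Of all genes, 24.2% were higher at this step in lateral and 17.7% in median nectaries. In the list of 6 placed by product name, 2 were past 2-fold in each nectary type, and with columns scaled to the same total 2 of the 5 were in lateral nectaries. NAC050 (LOC103870463), which works with a histone demethylase, scored 315, 789 and 1694 in lateral nectaries, 286, 583 and 2000 in median nectaries and 344 in leaf. The NAC021/022-like gene LOC103854361, named after an auxin-responsive root factor, was at 0 or 1 in 5 groups and at 26 and 293 in lateral and median post-secretory nectaries.

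**Figure D4:**
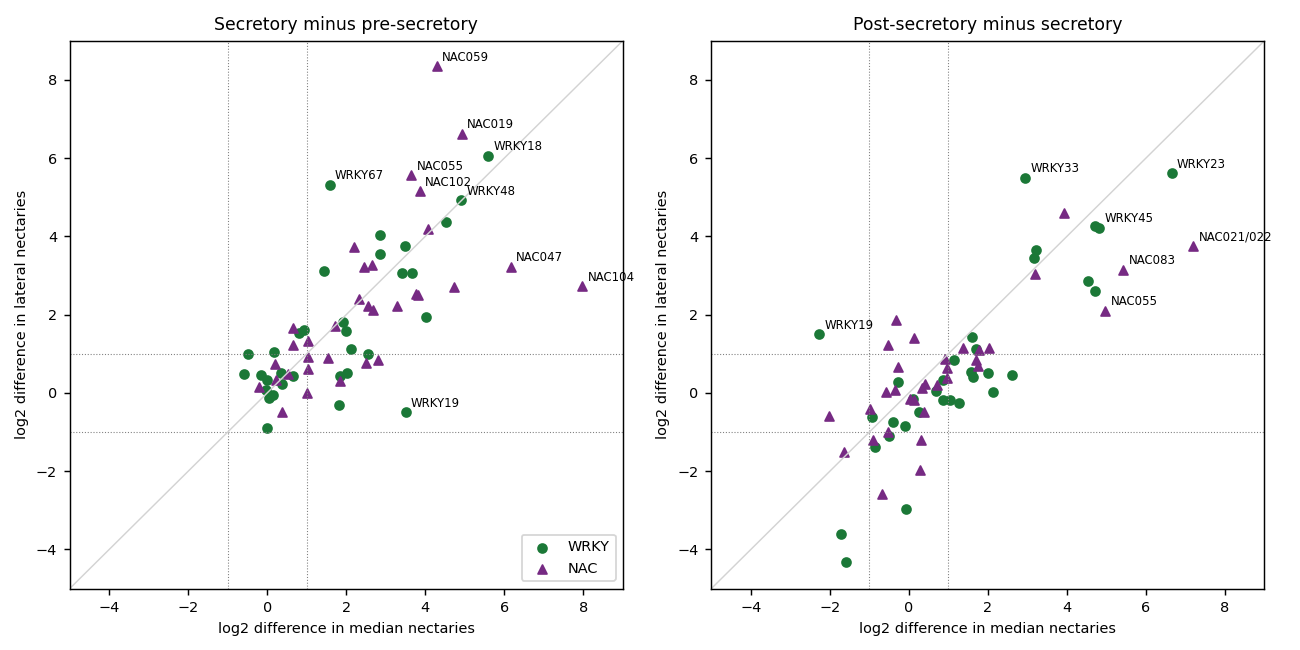
Log2 difference of each WRKY gene (circles) and NAC gene (triangles) in lateral nectaries (vertical axis) against median nectaries (horizontal axis), for secretory minus pre-secretory (left) and post-secretory minus secretory (right). Dotted lines mark 2-fold, the grey line equal differences, and genes listed at 0, such as NAC059 and WRKY23, are placed by the value of 1 added to each score. Most members lie in the upper right of the left panel, NAC104 lies far below the line there (2.72 lateral, 7.97 median), and WRKY19 lies in opposite directions in the right panel (1.5 lateral, −2.27 median).

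The steps of the nectary types were set side by side. Across the 66 members, lateral and median differences had a Pearson r of 0.69 for the onset of secretion and 0.8 for its end, where all genes had 0.83 and 0.7. These describe genes that were normalized in the same table and are not replicates. One member was past 2-fold in opposite directions, against 1.08% of all genes: a gene with the product name WRKY19 (LOC103839910), in Arabidopsis the name of a resistance protein that carries a WRKY domain. It scored 23, 16 and 47 in lateral nectaries, 19, 225 and 46 in median nectaries and 52 in leaf.

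Stages after and before secretion were compared as well, as a description. Post-secretory scores were at least 2-fold above pre-secretory ones in 19 WRKY and 23 NAC genes in lateral nectaries, against 17% of all genes, and in 24 and 27 in median nectaries, against 19.8%. The lower members were 1 WRKY gene (WRKY39) and 1 NAC gene (LOC103844609, NAC5-like) in lateral nectaries, against 14.5% of all genes, and 0 and 0 in median nectaries, against 22%. In both types at once, 18 WRKY and 22 NAC genes were higher, against 13.3% of all genes, and 0 were lower, against 11.3%. The NAC5-like gene LOC103844609 was the 1 member past 2-fold in opposite directions, against 0.497% of all genes, with 8 after against 29 before secretion in lateral nectaries and 12 against 2 in median nectaries. The summed nectary markers moved the other way, at 15361 after against 202693 before secretion in lateral nectaries and at 26557 against 100495 in median nectaries. Of the 3 markers, 2 were at least 2-fold lower in each type. In median nectaries 1, SWEET9, was higher, at 8959 after against 1367 before secretion. Pollen markers summed to 2984 against 600 in lateral and 9677 against 1123 in median nectaries. Post-secretory nectaries were sampled 12 h after the secretory stage, so time of day and the end of secretion cannot be told apart, and the part of pollen was not tested.

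Secretory nectaries were also compared with leaf, the other tissue sampled. In lateral nectaries 17 WRKY genes were at least 2-fold higher than in leaf and 4 lower, and 17 NAC genes were higher and 5 lower, against 29.2% and 28.1% of all genes. In median nectaries the WRKY counts were 12 and 7 and the NAC counts 14 and 5, against 24.8% and 25.6%. Before secretion many members were below leaf: 11 WRKY and 16 NAC genes were at least 2-fold below leaf in both pre-secretory groups, against 16.5% of all genes. Both comparisons with leaf use the same leaf score. All 4 pollen markers were at least 2-fold higher than in leaf in both types of secretory nectaries. Of the 7 wounding and touch genes, 5 were higher and 0 lower in each type. The part of pollen and of handling in the counts against leaf was not tested.

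WRKY27 was 56.5-fold higher than in leaf in lateral and 20.8-fold higher in median secretory nectaries, the largest WRKY difference in either type among genes not listed at 0 in leaf. WRKY17 was 32.4-fold and 6.15-fold higher than in leaf, and WRKY11 (LOC103862064) 9.29-fold and 10.7-fold. WRKY18 was 13.5-fold higher in lateral and 1.5-fold higher in median nectaries, and its copy LOC103861783 was 3.21-fold higher in lateral and 3.76-fold lower in median nectaries. On the lower side were WRKY33, with 19 lateral and 67 median against 84 in leaf, and WRKY21 (LOC103865057), at 212 and 138 against 411. The WRKY3 or WRKY4 gene LOC103875435, related to resistance against necrotrophs, was the 1 WRKY gene with its highest score in leaf alone, at 424 against 359 in lateral and 143 in median secretory nectaries.

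Among NAC genes, NAC083 was furthest below leaf, by 18.9-fold in lateral and 31.8-fold in median secretory nectaries. NAC069 scored 2312 in lateral secretory nectaries and 77 in median secretory nectaries against 1608 in leaf, so that it was 1.44-fold higher in the first and 20.6-fold lower in the second. NAC104 was 26.9-fold above leaf in median and within 2-fold in lateral secretory nectaries. NAC100 (LOC103860593) was 6.54-fold and 14.2-fold higher than in leaf in lateral and median nectaries. NAC019 was 8.08-fold and 3.89-fold higher. The NAC5-like gene LOC103844609, with no match, had 53 and 20 against 1.

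The comparison of lateral with median nectaries asked which members differ between the nectary types. WRKY genes leaned to the lateral side before and during secretion. At the pre-secretory stage 12 WRKY genes were at least 2-fold higher in lateral than in median nectaries and 1 was lower, against 7.95% and 4.45% of all genes. At the secretory stage the counts were 14 and 3, against 14.7% and 13%, and at the post-secretory stage 6 and 4, against 12.8% and 9.45%, or 5 and 6 after quantile normalization. NAC genes had 6 higher and 3 lower before secretion, 6 and 5 at secretion and 2 and 7 after it, the last being 3 and 6 with columns scaled to the same total. The numbers of pre-secretory calls rest partly on low scores: with 10 added before the logarithm in place of 1, 2 NAC genes were higher and 0 WRKY genes were lower.

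The defence and salicylic acid WRKY genes made up most of the lateral side. Of the 12, 9 were at least 2-fold higher in lateral nectaries and 0 lower before secretion, 8 and 1 at secretion, and 4 and 0 after it. The shares of all genes at these stages were 7.95% and 4.45%, 14.7% and 13%, and 12.8% and 9.45%. The 9 were the WRKY11 genes, the WRKY18 copies, WRKY17, and WRKY48 with 1 against a listed 0. After secretion the 4 were the WRKY18 copies and WRKY17. Calls of copies that share sequence are not independent. Across all 3 stages, 5 WRKY genes were at least 2-fold higher in lateral nectaries, against 2.84% of all genes: the 3 WRKY18 copies, WRKY17 and WRKY14. Their lateral over median ratios at secretion were 8.99, 12.1 and 11.3 for the WRKY18 copies, 5.27 for WRKY17 and 3.83 for WRKY14. WRKY57 (LOC103852570) was lower in lateral nectaries at all 3 stages, by 2.73-, 3.5- and 2.87-fold, against 1.60% of all genes. At secretion WRKY67 (79 lateral, 5 median) and WRKY39 (1241 lateral, 176 median) also stood on the lateral side, and the WRKY19 gene LOC103839910 on the median side (16 lateral, 225 median).

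**Figure D5:**
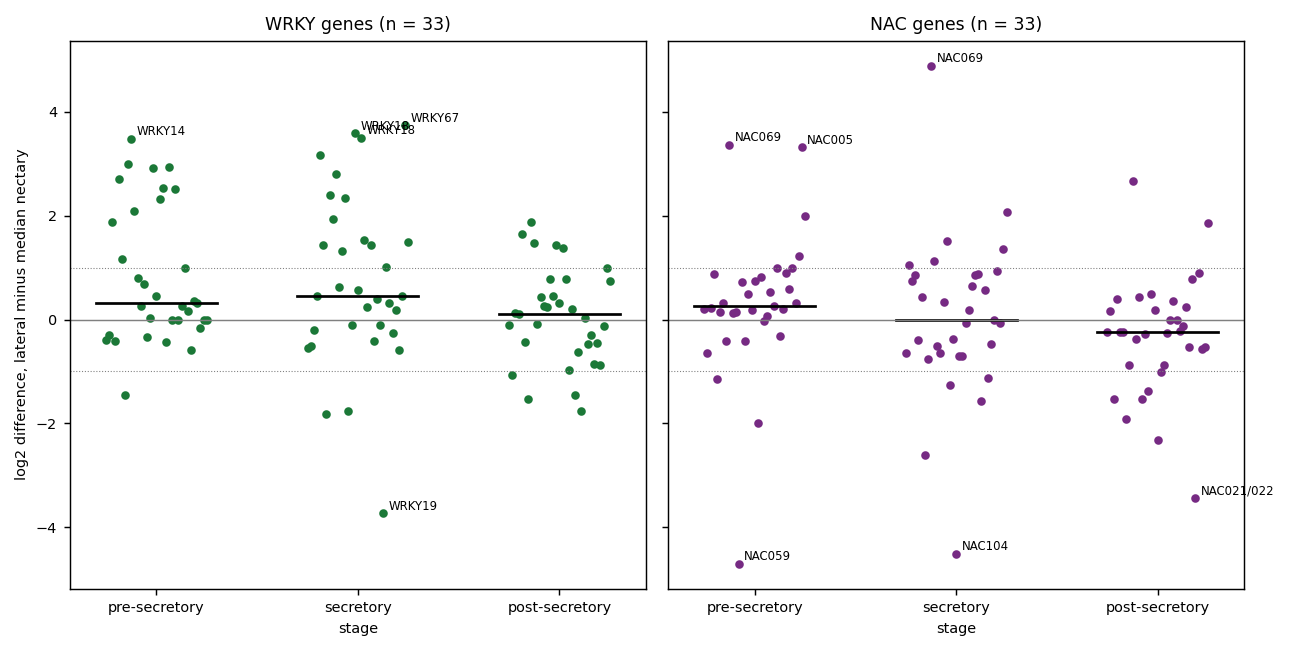
Log2 difference between lateral and median nectaries (lateral minus median) of each WRKY gene (left) and each NAC gene (right) at the 3 stages, with the median of the family as a black bar and dotted lines at 2-fold. NAC059, listed at 0 in lateral pre-secretory nectaries, is placed by the value of 1 added to each score. The WRKY medians are 0.31, 0.46 and 0.11 and the NAC medians 0.27, 0.00 and −0.24 from the pre-secretory to the post-secretory stage.

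NAC069 was the NAC gene furthest to the lateral side at every stage. It stood 10.4-, 29.7- and 6.31-fold above median nectaries over the 3 stages. The other member higher at all 3 stages was the NAC069-like gene LOC103836814, which has no match, with 3, 20 and 46 in lateral nectaries and 0, 4 and 12 in median nectaries. The gene furthest to the median side at secretion was NAC104, with 32 in lateral and 751 in median nectaries, followed by NAC047 with 46 and 286. After secretion NAC104 (120 lateral, 599 median), NAC047 (1150 lateral, 4365 median) and NAC083 (1471 lateral, 4239 median) were on the median side. NAC055 was past 2-fold to the lateral side at one stage and to the median side at another, against 2.61% of all genes. The NAC021/022-like gene also counts there, but its lateral side rests on a score of 1 against a listed 0 before secretion. NAC055 stood at 141 in lateral and 49 in median nectaries at secretion and at 608 and 1569 after it. The 1 phloem marker measured of 3 listed, the sucrose transporter gene SUC2 (LOC103840834), was higher in lateral nectaries throughout, at 57, 376 and 731 over the stages against 10, 42 and 82 in median nectaries. Summed pollen markers were lower in lateral nectaries, at 600, 3909 and 2984 against 1123, 6110 and 9677. Before secretion 1 of the 4 was at least 2-fold lower there, with a median log2 difference of −0.22. At secretion 3 were lower and after it 4, and 0 were higher at any stage. Their part in the differences between nectary types was not tested.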

How the data were processed

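RNA from 7 groups, 3 libraries each per the labels, was sequenced by the authors with 50 bp paired-end reads. For every transcript and group the authors deposited a single normalized score in whole numbers. Per the file headers 6 columns are marked UQN, read here as upper-quartile normalized, and the lateral post-secretory column has no mark. How reads were aligned and counted and how libraries were combined: not given in the sources used here. Rows are Brassica rapa transcripts that Brassica juncea sequence matched, so copies of the polyploid genome that match the same transcript were not separated.

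Of 14398 transcripts, 1 per gene was kept (13904), and the 13896 genes that reached a score of 1 in 3 or more groups were compared. Differences were taken on log2 of the score plus a pseudocount of 1, which understates changes of low genes, and 2-fold or more was counted. No test was possible. The calculation was run on simulated scores with set folds, without noise or scores of 0, which says nothing about the spread of these data. Python 3.11.15, pandas 2.3.3 and matplotlib 3.10.9 were used. The members, role lists and comparisons were chosen with earlier results of these data known. Members joined role lists by the matched Arabidopsis gene, or by product name without a match, an assignment chosen after the table was seen. Named genes were the 3 highest by mean, the 3 largest differences each way per family and comparison with a score of at least 50 in the higher group, the most abundant members of each role list, and any member with opposite steps; some further members, such as LOC103836814 and the steadiest genes, were chosen after their values were seen. Alternatives were pseudocounts of 10 and 0.1, no filter, same-total scaling, quantile normalization and summed transcript rows, and, chosen after seeing the data, role lists by product name alone and leaving out the lateral post-secretory column.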

Additional observations from a re-analysis of the deposited data

Results flagged for a closer look

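The WRKY19 gene LOC103839910 differed between nectary types in its step from the secretory to the post-secretory stage, with a log2 difference of 1.5 in lateral and −2.27 in median nectaries. The lateral step minus the median step was 3.76. With 1 score per group, this difference was not tested, and the scores behind it lay between 16 and 225. Such opposite steps were found in 1.52% of members, near the 1.08% of all genes.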

How the results depend on the processing

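No paired analysis was possible because the table holds 1 score per group and none per library, and for the same reason no replicate could be left out. Of the counts over each family, those not within 1.5 times the main count were as follows. With columns scaled to the same total, post-secretory against secretory lateral nectaries had 17 NAC genes higher and 2 lower and 3 WRKY genes lower, 13 NAC genes were higher after secretion in both types, 1 WRKY gene was lower at lateral secretion, 1 NAC gene was highest before secretion and 0 WRKY genes were highest in leaf. After quantile normalization, 1 NAC gene was lower at lateral secretion, 4 NAC genes were lower after secretion in median nectaries and 1 NAC gene was highest before secretion. With a pseudocount of 10, 4 WRKY genes were lower in median secretory nectaries than in leaf, and in pre-secretory lateral against median nectaries 0 WRKY genes were lower and 2 NAC genes higher. A pseudocount of 0.1, no filter, summed rows and leaving out the lateral post-secretory column gave family counts within that range. Counts within the role lists, many of them of 1 to 3 genes, moved past it in 80 cases: 22 with a pseudocount of 10, 19 with same-total scaling, 17 after quantile normalization, 21 with lists placed by product name and 1 with summed rows. Among those printed, same-total scaling left 0 of the stress NAC genes lower after secretion in lateral nectaries, and a pseudocount of 10 left 0 developmental WRKY genes higher at secretion in either type and 1 of 3 senescence and phosphate WRKY genes. The WRKY median at secretion was 0.82 in lateral and 0.88 in median nectaries with a pseudocount of 10, and 0.56 in lateral nectaries with same-total scaling. The cause of these shifts was not tested. Same-total scaling moved the median of all genes at the onset of secretion to −0.54 in lateral and −0.38 in median nectaries. No difference past 2-fold of a named gene changed sign under these settings. Depth per library is unknown, so counting error of low scores could not be given.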

Other observations

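NAC genes outside the members were looked up by Arabidopsis locus in a list of 29 loci that also covers members, which found 5: CUC1, CUC3, a pair of ATAF2 genes and ORE1, left out above by name. Of these 5, 3 were at least 2-fold higher and 1 lower with secretion in lateral nectaries, and 3 were higher and 0 lower in median nectaries. Of all genes, 21.3% were higher and 23.9% lower in lateral nectaries, and 17.57% and 18.7% in median nectaries. CUC1 (LOC103859613), which sets organ boundaries, scored 345, 160 and 3188 in lateral nectaries over the 3 stages, 39, 72 and 3144 in median nectaries and 4 in leaf. CUC3 (LOC103832101), a boundary gene of the same group, scored 22, 847 and 195 in lateral nectaries, 4, 96 and 36 in median nectaries and 1 in leaf. The ATAF2 genes LOC103855813 and LOC103850713, related to ATAF1, scored 1416 and 142 in lateral secretory nectaries against 148 and 158 before secretion, and 1545 and 342 in median secretory nectaries against 211 and 200. CUC1 was thus high after secretion in both nectary types, and CUC3 was highest in lateral secretory nectaries.

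An uncharacterized gene whose matched Arabidopsis gene is described as a WRKY transcription factor (LOC103838138) scored 878, 2237 and 1409 in lateral nectaries, 928, 1527 and 1450 in median nectaries and 1707 in leaf. A gene called CUP-SHAPED COTYLEDON 2 by product name but matched to NAC082 (LOC103847201) scored 509, 516 and 1023 in lateral nectaries, 572, 496 and 982 in median nectaries and 530 in leaf.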
